A study of Triticum aestivum with 78 samples.

Results

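DMAS1 encodes deoxymugineic acid synthase and PCS1 encodes phytochelatin synthase, a pair of wheat genes of metal homeostasis. They are 2 of the 771 genes that the annotation of a wheat Affymetrix array names by symbol, and are measured by 4 of its 61115 probe sets other than controls and reporters. The platform annotation gave DMAS1 to 3 of them, Ta.5335.1.A1_at, Ta.5335.1.A1_x_at and Ta.5335.3.S1_a_at, and PCS1 to 1, Ta.232.1.S1_at. A probe set was counted as a member by its annotation, and all 4 had a mean level above that of the median probe set. The samples were 78 arrays of bread wheat (Triticum aestivum) seed, 2 biological replicates of each of 39 lines from the cross RL4452 x AC Domain. Per the labels, seed was taken from spikes in a field lattice of 49 entries with 3 field replications, 5 days after anthers became visible. No treatment was applied and no line was a control, so each line was compared with the other lines and replicate 2 with replicate 1. Which field replication gave which array is not stated, and no parent array was analysed here.

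In grasses, iron is taken up and moved as a complex with mugineic acid family phytosiderophores, which are made from S-adenosylmethionine through nicotianamine. Deoxymugineic acid synthase catalyses the reduction that ends the synthesis of deoxymugineic acid, the member of the family from which the others derive. Phytochelatin synthase is activated by cadmium and other metal ions and joins units of glutathione into phytochelatins, thiol-rich peptides that bind metals and are carried into the vacuole. In a young wheat seed, pericarp, nucellus and the early endosperm are sampled together, and metals reach the endosperm through maternal tissue.

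The probe sets of DMAS1 are not 3 independent measurements. Ta.5335.1.A1_at and Ta.5335.1.A1_x_at carry the same target accession, whereas Ta.5335.3.S1_a_at carries another. In Affymetrix naming, the suffix x marks a probe set in which some probes may also bind other transcripts, and the suffix a marks one that detects several transcripts of a gene. Bread wheat has 3 closely related copies of most genes, and the annotation ties all 3 probe sets to 1 gene record whose synonyms include DMAS1-A and DMAS1-B, so the copies cannot be told apart. A separate record, DMAS1-D, had no annotated probe set. Levels are given on the log2 scale of the deposited intensity. A higher level of one probe set than of another says nothing about transcript amounts.

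Some arrays went against their labels. At 77 probe sets whose arrays fell into 2 clearly separated clusters, both arrays of a line lay in the same cluster at no fewer than 80.5% of probe sets in 33 lines, but at only 33.8% to 59.7% in the other 6, which were B33, G13, G30, H23, H8 and H9. The replicate 2 arrays of these 6 lines were all scanned on 1 day that held 8 arrays. The array labelled G30 replicate 2 fell on the same side as that labelled G13 replicate 1 at 77 of 77 probe sets, and G30 replicate 1 matched G13 replicate 2 at 77 of 77, as did H9 replicate 1 with C22 replicate 1. No array was relabelled, none of the 4 members was among the 77 probe sets, and the tests and correlations of DMAS1 and PCS1 are given with and without the 6 lines where the text says so. Endosperm markers varied most among the marker lists, with array means of the 13 of 28 probe sets above the median level running from -1.02 to 3.67 around their average on the log2 scale, and 0 of 6 embryo marker probe sets lay above the median level.

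DMAS1 differed between lines in 2 of its 3 probe sets, each over a range of less than a doubling. The line means of Ta.5335.1.A1_x_at spanned 1.82-fold (limma moderated F test over 39 lines, adjusted p = 0.0303) and those of Ta.5335.3.S1_a_at spanned 1.76-fold (adjusted p = 0.0310). Ta.5335.1.A1_at also spanned 1.82-fold but missed the threshold of 0.05 (adjusted p = 0.231). Across all probe sets, 6.69% passed this test, and their median range was 3.05-fold, against 1.91-fold for probe sets above the median level. Without the 6 lines, the adjusted p was 0.0106 for Ta.5335.1.A1_x_at, 0.0261 for Ta.5335.3.S1_a_at and 0.160 for Ta.5335.1.A1_at, with 8.08% of all probe sets called. With scan day as a block, the adjusted p of Ta.5335.1.A1_x_at was 0.136 and the call was lost. It was also lost with limma's trend (0.0557) and with arrays centred on their median (0.0544), and the trend ended the call in Ta.5335.3.S1_a_at (0.0509). Leaving out 1 array ended the call in Ta.5335.1.A1_x_at for either array of C25 (adjusted p = 0.0783 and 0.0702) or F36 (0.0729 and 0.0675) and for C58 replicate 2 (0.056), and in Ta.5335.3.S1_a_at for B68, D39 or C58 replicate 2 and for F36 or DH91 replicate 1 (0.0504 to 0.0642). Leaving out H8 replicate 1 made Ta.5335.1.A1_at pass (adjusted p = 0.0177). In whole seed, fewer cells of a type and less RNA per cell cannot be told apart.

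C58 stood at the upper end and C25 and F36 at the lower end in all 3 DMAS1 probe sets. In Ta.5335.1.A1_x_at, C58 had log2 levels of 9.68 in replicate 2 and 9.54 in replicate 1, H10 had 9.55 and 9.48, and A35 had 9.49 and 9.53. The lowest lines were H8 at 8.37 and 9.13, C25 at 8.77 and 8.72, and F36 at 8.75 and 8.73. Both arrays of C25 and of F36 lay below both arrays of each of the 3 highest lines, while the arrays of H8 lay far apart from each other. Lines were ranked on these same values, so that separation is in part built in by the ranking.

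The order was similar at its ends in the other DMAS1 probe sets. In Ta.5335.1.A1_at, the highest lines were C58 at 8.69 in replicate 2 and 8.52 in replicate 1, H10 at 8.67 and 8.37, and D39 at 8.83 and 8.17. The lowest were C25 at 8.06 and 7.62, F36 at 7.68 and 7.80, and H8 at 7.28 and 8.19. H8 replicate 2 was the lowest of all 78 arrays in both Ta.5335.1.A1_at and Ta.5335.1.A1_x_at, whereas H8 replicate 1 was at 8.19 and 9.13, against array medians of 8.24 and 9.28.

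Ta.5335.3.S1_a_at had B68 and G32 at its ends. The highest were B68 at 10.07 in replicate 2 and 9.75 in replicate 1, C58 at 9.91 and 9.74, and D39 at 9.95 and 9.69. The lowest were C25 at 9.20 and 9.16, F36 at 9.15 and 9.09, and G32 at 9.32 and 8.88. B68 ranked 7 of 39 in Ta.5335.1.A1_x_at and G32 ranked 33, and H8 was not among the 3 lowest lines here. Among the 10 highest lines of each DMAS1 probe set, 5 were shared by all 3 probe sets (C10, C58, D39, E5 and H10), and among the 10 lowest, 6 were shared (A40, B33, C25, F36, F38b and F48).

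**Figure D1:**
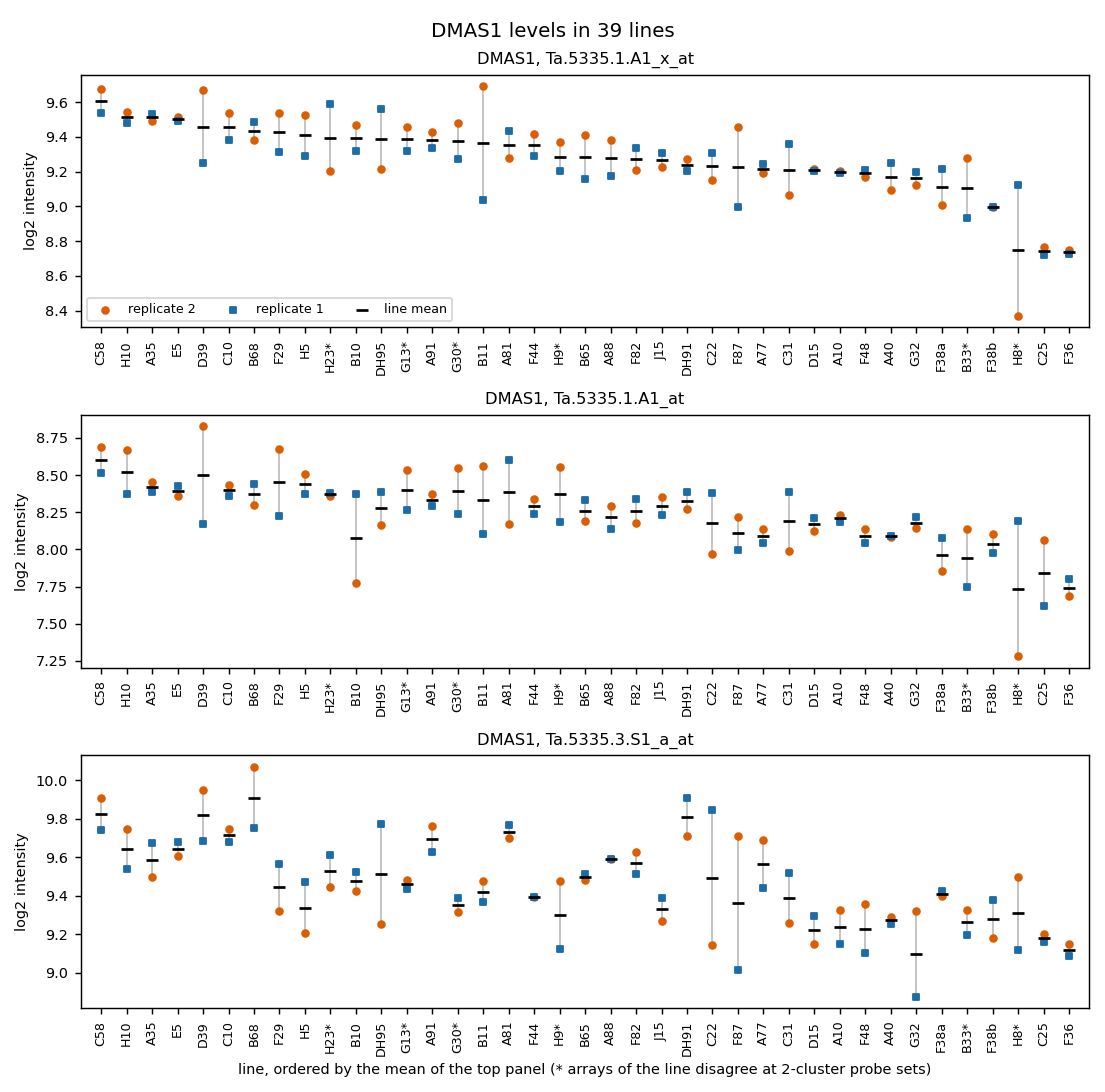
Log2 intensity of the 3 DMAS1 probe sets in both arrays of each of 39 lines, with the line mean as a dash, and lines in the order of Ta.5335.1.A1_x_at in every panel. C58 is at the left end, and the means of C25 and F36 lie low in all 3 panels, while the replicate 2 array of H8 is low in the upper and middle panels only.

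Nearly all neighbouring lines could not be ordered. The standard error of a difference between 2 line means of n = 2 arrays was 0.178 for Ta.5335.1.A1_x_at, 0.216 for Ta.5335.1.A1_at and 0.183 for Ta.5335.3.S1_a_at. Of the 38 steps between neighbours in the order, 1 exceeded that error in Ta.5335.1.A1_x_at, the step from F38b at 8.997 to H8 at 8.747, and 0 did in each of the other DMAS1 probe sets. The 3 lowest lines of Ta.5335.1.A1_x_at (H8, C25 and F36) lie below that step.

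When each line was set against the mean of the other 38, F36 fell in Ta.5335.1.A1_x_at by 0.55 on the log2 scale (limma, adjusted p = 0.0198). H8 fell by 0.54 in the same probe set (adjusted p = 0.00169) and by 0.52 in Ta.5335.1.A1_at (adjusted p = 0.0103). No line was called in Ta.5335.3.S1_a_at, and no line rose in any DMAS1 probe set. Over all probe sets and lines, 0.451% of these contrasts were called lower and 0.598% higher, and 35.4% of probe sets had at least 1 called line. These shares pool all lines, and small p were more common in H8. In Ta.5335.1.A1_x_at, p was 0.000126 in H8 and 0.000102 in F36, but the adjusted p was 0.00169 and 0.0198 (limma). Without the 6 lines, 0.411% of contrasts were called lower and 0.558% higher, 10.8% of probe sets had at least 1 called line, and the DMAS1 calls were F36 in Ta.5335.1.A1_at and both C25 and F36 in Ta.5335.1.A1_x_at. The F36 call in Ta.5335.1.A1_x_at was lost with scan day as a block (adjusted p = 0.12), with array weights (adjusted p = 0.312), and on leaving out either F36 array (adjusted p up to 0.322). The calls on H8 rest on its replicate 2 array and were lost with array weights. F36 replicate 1 had the highest endosperm list mean of all arrays, at 3.67, and F36 replicate 2 had 1.37. C25, which lay about as low in Ta.5335.1.A1_x_at, had -0.761 in replicate 1 and -0.397 in replicate 2. Over lines, that probe set had r = -0.168 with the endosperm list (adjusted permutation p = 0.451). Whether endosperm content bears on the F36 fall was not tested.

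Replicate arrays of a line resembled each other in DMAS1 more than in most probe sets. The intraclass correlation, the share of the variance that lies between lines, was 0.445 in Ta.5335.1.A1_x_at, 0.442 in Ta.5335.3.S1_a_at and 0.277 in Ta.5335.1.A1_at. The median was 0.0903 over probe sets above the median level and 0.512 over those with a called line effect. Over 39 lines, Pearson's r of replicate 2 with replicate 1 was 0.462 in Ta.5335.1.A1_x_at (Spearman's rho 0.387) and 0.435 in Ta.5335.3.S1_a_at (rho 0.429), with adjusted permutation p of 0.0180 and 0.0246 for r. In Ta.5335.1.A1_at r was 0.288 and did not pass (adjusted permutation p = 0.175). Permutation tests were two-sided, and p-values were adjusted over the 34 relations computed. Leaving out line B68 gave r = 0.396 in Ta.5335.3.S1_a_at, which no longer passed. Without the 2 lines farthest from the median, r in Ta.5335.1.A1_x_at was 0.248 and no longer passed, so that agreement rests on those lines. Over the 33 lines left without the 6, r was 0.547 in Ta.5335.1.A1_x_at, 0.455 in Ta.5335.3.S1_a_at and 0.329 in Ta.5335.1.A1_at.

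The DMAS1 probe sets moved together over the line means. Ta.5335.1.A1_at and Ta.5335.1.A1_x_at, which share a target, had r = 0.923 (adjusted permutation p = 0.00017). Ta.5335.3.S1_a_at had r = 0.663 with Ta.5335.1.A1_x_at (adjusted permutation p = 0.00017) and r = 0.634 with Ta.5335.1.A1_at (adjusted permutation p = 0.00034). Leaving out the 6 lines gave 0.914, 0.698 and 0.688. All probe sets are read from the same arrays, and the replicate 2 minus replicate 1 differences of a line also moved together, with r = 0.728 for the pair of one target and 0.219 between Ta.5335.1.A1_x_at and Ta.5335.3.S1_a_at. The log2 difference of Ta.5335.3.S1_a_at minus Ta.5335.1.A1_x_at, whose size has no meaning of its own but whose variation over lines can be compared, was looked at after its values were seen. It ranged over lines from 0.57 in DH91 to -0.07 in H5. This difference did not vary between lines beyond the spread of replicates (one-way F = 1.13, permutation p = 0.348 over 39 lines), and the permutation p was 0.145 without the 6 lines and 0.0126 without H8 replicate 1.

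**Figure D2:**
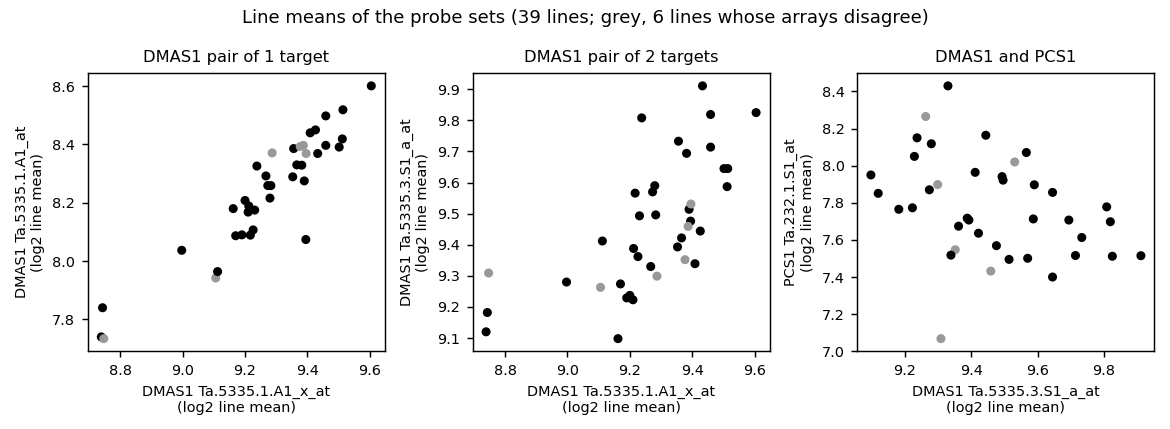
Line means on the log2 scale for the DMAS1 pair of one target (r = 0.923), the DMAS1 pair of different targets (r = 0.663), and DMAS1 Ta.5335.3.S1_a_at with PCS1 (r = -0.348). Each point is 1 of 39 lines, and the 6 lines whose arrays disagreed are grey; the lowest PCS1 point is H8.

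PCS1 did not differ between lines beyond the spread of its replicates. Its line means spanned 2.57-fold, but the test did not separate them (limma moderated F test, adjusted p = 0.898, and 0.863 without the 6 lines). With replicate number as a block, the adjusted p of that test was 0.504. Without that block, the residual SD was 0.417 on the log2 scale, which includes any difference between replicate numbers. The SD of the line means was 0.273. J15 was highest, at 8.41 in replicate 2 and 8.45 in replicate 1, followed by B33 at 7.90 and 8.63 and F29 at 8.18 and 8.15. G13 at 7.59 and 7.27, E5 at 6.90 and 7.90, and H8 at 6.09 and 8.05 were lowest. The arrays of J15 and F29 lay close together, whereas those of H8 spanned more than the whole range of line means.

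The single PCS1 call was H8, which fell by 0.73 against the other 38 lines (limma, adjusted p = 0.0492). That difference was 0.26 without H8 replicate 2 and -1.71 without H8 replicate 1. Its replicate 2 array was the lowest of all 78 and its replicate 1 array lay above the median array of 7.76. At least 1 line was called in 35.4% of all probe sets, and in 10.8% without the 6 lines, which include H8. Without the 6 lines, no line was called in PCS1, and the H8 call was kept in 24 of 78 fits that each left out 1 array. The intraclass correlation of PCS1 was -0.08, and r between replicate numbers was 0.086 (39 lines, adjusted permutation p = 0.721), or 0.156 without the 6 lines. The intraclass correlation was taken without a replicate term, so the PCS1 difference between replicate numbers counts in it as spread within lines. The standard error of a difference between 2 line means, also without a replicate term, was 0.402, and 0 of 38 steps between neighbouring lines exceeded it. As in DMAS1, such steps are small by construction and do not test whether lines differ.

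**Figure D3:**
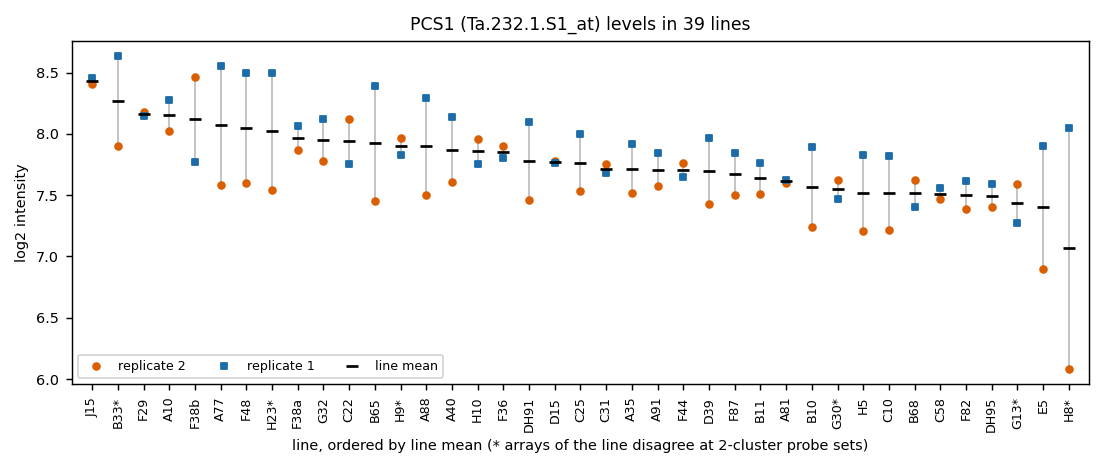
Log2 intensity of the PCS1 probe set in both arrays of each of 39 lines, ordered by the line mean, drawn as a dash. The grey bars joining the arrays of a line are long compared with the slope of the means, and the replicate 2 array of H8, at 6.09, is the lowest point.

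PCS1 differed between replicate numbers, and DMAS1 did not pass that test. PCS1 averaged 7.62 ± 0.41 in replicate 2 and 7.94 ± 0.33 in replicate 1 (SD, n = 39 each), a fall of 0.32 on the log2 scale (SE 0.077, limma with line as a block, adjusted p = 0.00169). Replicate 2 arrays ran from 6.09 through a median of 7.59 to 8.46, and replicate 1 arrays from 7.27 through 7.85 to 8.63. PCS1 was lower in replicate 2 in 27 of 39 lines, and the groups overlapped widely. Of all probe sets, 28.7% passed this test, 13.2% lower and 15.5% higher in replicate 2, and the lower tail (percentile 5) of the difference was -0.20. Without the 6 lines, PCS1 fell by 0.29 (limma, adjusted p = 0.00165), and 31.5% of probe sets passed, 15.3% lower and 16.2% higher.

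The DMAS1 differences of replicate 2 minus replicate 1 were 0.03 (SE 0.049) in Ta.5335.1.A1_at, 0.03 (SE 0.040) in Ta.5335.1.A1_x_at and 0.02 (SE 0.042) in Ta.5335.3.S1_a_at, with adjusted p of 0.723, 0.590 and 0.717 (limma). Over the other 33 lines they were 0.019, 0.046 and 0.007. Ta.5335.1.A1_x_at ran from 8.37 through a median of 9.28 to 9.69 in replicate 2, against 8.72 through 9.27 to 9.59 in replicate 1. Ta.5335.3.S1_a_at ran from 9.14 through 9.45 to 10.07 in replicate 2, against 8.88 through 9.47 to 9.91 in replicate 1.

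**Figure D4:**
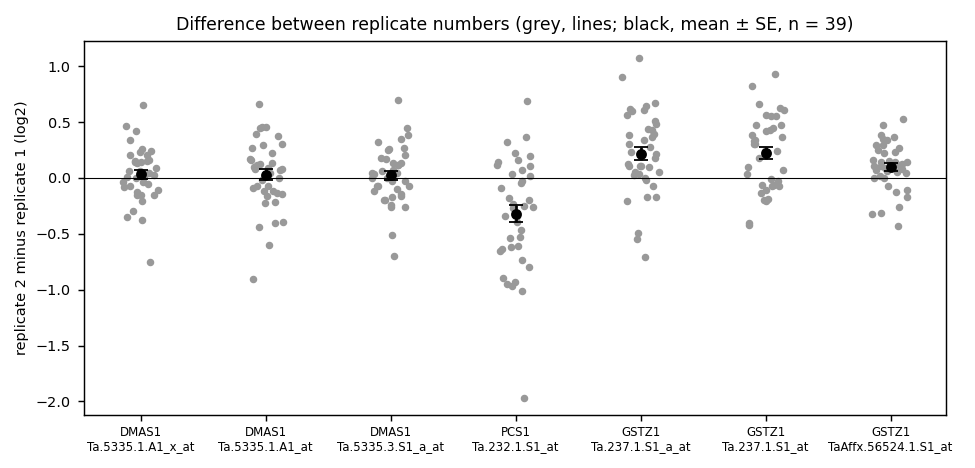
Difference of replicate 2 minus replicate 1 on the log2 scale for each of 39 lines (grey) with the mean and its SE (black), for the 3 DMAS1 probe sets, PCS1 and the 3 GSTZ1 probe sets. DMAS1 means lie near 0, the PCS1 mean at -0.32 and the GSTZ1 means between 0.10 and 0.22.

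Replicate number coincided with the scanning campaign: the 39 replicate 2 arrays and the 39 replicate 1 arrays carry different instrument project names and were scanned over 15 days, of which 1 held both numbers. Field replication, sampling, RNA handling and scanning therefore cannot be told apart in the PCS1 difference. PCS1 day means ran from 7.24 to 7.85 on replicate 2 days and from 7.70 to 8.15 on replicate 1 days, so the days overlapped. On the shared day, 1 replicate 2 array had 7.46 and 6 replicate 1 arrays averaged 7.76 ± 0.24 (SD). With scan day as a block, the PCS1 difference was -0.67, resting on that day, and did not pass (adjusted p = 1.0). Marker list means, taken over the probe sets above the median level and centred on all arrays, also moved with replicate number. Green pericarp (10 of 34 probe sets, array means -0.28 to 0.27) averaged -0.052 in replicate 2 and 0.052 in replicate 1 and was lower in replicate 2 in 29 of 39 lines. The anther and pollen list (3 of 7, -0.32 to 0.25) averaged -0.057 in replicate 2 and 0.057 in replicate 1, lower in 33 of 39 lines. Its 3 probe sets were of raftin1b and of the profilin gene PRO1, at mean log2 levels of 12.0 and 13.4 for PRO1. That list mean need not reflect anther or pollen. The dividing cell list (20 of 20, -0.48 to 0.22) averaged -0.027 in replicate 2 and 0.027 in replicate 1, lower in 25 of 39. The endosperm list (13 of 28) averaged 0.081 in replicate 2 and -0.081 in replicate 1, lower in 19 of 39 lines. Their part in the PCS1 difference was not tested.

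**Figure D5:**
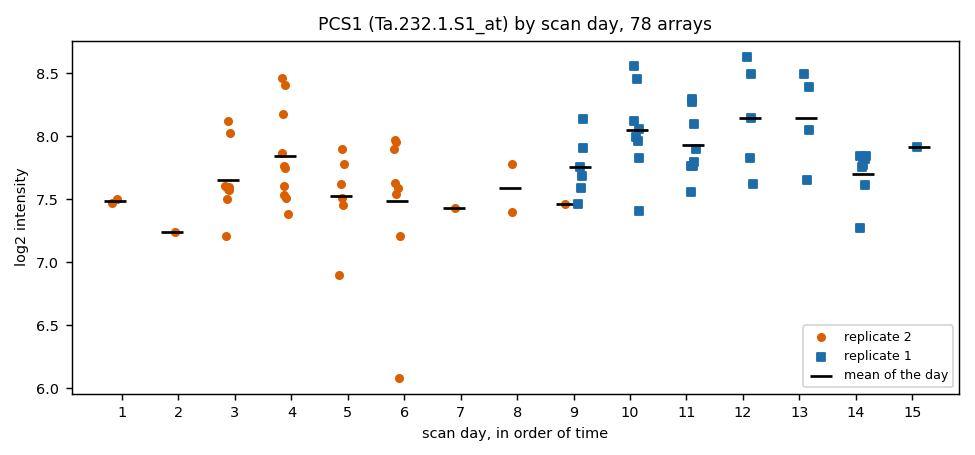
Log2 intensity of PCS1 in 78 arrays by scan day in order of time, with replicate 2 arrays as circles, replicate 1 arrays as squares and day means as dashes. Replicate 2 day means lie between 7.24 and 7.85 and replicate 1 day means between 7.70 and 8.15.

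DMAS1 and PCS1 had negative correlations over lines, of which Pearson's r passed the threshold for no DMAS1 probe set and Spearman's rho for 2 of 3. It was -0.348 for Ta.5335.3.S1_a_at with PCS1 (adjusted permutation p = 0.0933), -0.165 for Ta.5335.1.A1_x_at (adjusted permutation p = 0.451) and -0.141 for Ta.5335.1.A1_at (adjusted permutation p = 0.516). Spearman's rho was -0.408 for Ta.5335.3.S1_a_at (adjusted permutation p = 0.0405), -0.448 for Ta.5335.1.A1_x_at (adjusted permutation p = 0.0229) and -0.326 for Ta.5335.1.A1_at. PCS1 levels hardly repeated between the 2 arrays of a line (r = 0.086). A relation of lines therefore cannot be told apart here from levels shared within the same arrays. The library pair labelled H8, low in PCS1 and in 2 DMAS1 probe sets, weighed on r: without line H8 it was -0.446 for Ta.5335.3.S1_a_at and -0.425 for Ta.5335.1.A1_x_at, both past the threshold. Without H8 replicate 1, which leaves H8 represented by its low array, r was 0.245 for Ta.5335.1.A1_x_at and 0.279 for Ta.5335.1.A1_at. Within replicate 2 arrays alone, which include that low H8 array, r was 0.097 for Ta.5335.1.A1_x_at and 0.254 for Ta.5335.1.A1_at, the opposite sign. For Ta.5335.3.S1_a_at, r stayed negative in all 7 alternatives, from -0.473 to -0.276.

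Some DMAS1 probe sets moved over lines with the main axis of variation among the 78 arrays. That axis was not computed on line means, so differences between the 2 arrays of a line enter it. Over line means, a first principal component, computed on the brighter probe sets only and holding 18.7% of their variance, had r = 0.578 with Ta.5335.1.A1_at (adjusted permutation p = 0.000595) and r = 0.510 with Ta.5335.1.A1_x_at (adjusted permutation p = 0.00700). Ta.5335.3.S1_a_at had r = 0.375 with it (adjusted permutation p = 0.0638) and r = -0.458 with the second component (adjusted permutation p = 0.0180). PCS1 had r = -0.060 with the first component (adjusted permutation p = 0.788) and 0.399 with the second (adjusted permutation p = 0.0428), and without line H8 the value for the second component was 0.345 and no longer passed. Of 16 relations of the 4 probe sets with the marker list means for endosperm, green pericarp, dividing cells and anther or pollen, 0 passed by Pearson's r and 1 by Spearman's rho. That one was PCS1 with the endosperm list, with rho = -0.389 (adjusted permutation p = 0.0457) and r = -0.293 (adjusted permutation p = 0.175).

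The named genes most like DMAS1 Ta.5335.3.S1_a_at over the 39 line means were Prx1, with r = 0.639 for Ta.6572.1.S1_a_at and 0.586 for Ta.6572.2.S1_at, and CL9, listed also as RPL9, with r = 0.574, among 124 named probe sets above the median level. Within single replicate numbers the first of these had r = 0.548 in replicate 2 and 0.690 in replicate 1. Among all 30554 probe sets compared, TaAffx.111430.1.S1_at was most like it, with r = 0.842, and the median r was 0.032. For PCS1, the nearest of 126 named probe sets were the histone gene H2A-2, a member of the dividing cell list, with r = 0.713, ALP, an avenin-like seed protein gene, with r = 0.651, and PEAMT1, a phosphoethanolamine methyltransferase gene, with r = 0.593. Among all 30556 probe sets compared, Ta.5778.1.A1_at came first for PCS1 with r = 0.868, 0.834 within replicate 2 and 0.851 within replicate 1. ALP belongs to the endosperm list, whose mean had the opposite sign with PCS1 (r = -0.293). Over the other 33 lines, r was 0.706 for the first Prx1 probe set, 0.690 for H2A-2 and 0.829 for Ta.5778.1.A1_at. These are the highest of many correlations and share the arrays, so they describe likeness only.

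A list of genes for phytosiderophore, metal transport, glutathione and phytochelatin functions matched 1 annotated gene besides the members, GSTZ1, a zeta-class glutathione transferase gene, with 3 probe sets. One of them, TaAffx.56524.1.S1_at, differed between lines over 1.95-fold (limma moderated F test, adjusted p = 0.0284). Across all probe sets, 6.69% passed. With the members, the list held 7 probe sets, of which 3 passed, the other 2 being those of DMAS1 already given. A list of so few probe sets and genes gives no share of its own to compare. The GSTZ1 call was lost with scan day as a block (adjusted p = 0.136) and with limma's trend (0.0841). Leaving out 1 array of A10, F29, A35, B65 or J15 could end that call, with adjusted p between 0.0507 and 0.0825. F29 was highest at 8.41 in replicate 2 and 8.30 in replicate 1, and A10 was lowest at 7.42 and 7.36. All 3 GSTZ1 probe sets rose in replicate 2, by 0.22 in Ta.237.1.S1_a_at (adjusted p = 0.00434), 0.22 in Ta.237.1.S1_at (adjusted p = 0.00115) and 0.10 in TaAffx.56524.1.S1_at (adjusted p = 0.0274, limma), opposite in sign to PCS1. Of all probe sets, 28.7% passed that test and 15.5% were higher in replicate 2, and Ta.237.1.S1_at lay below the median level. Without the 6 lines the GSTZ1 differences were 0.171, 0.237 and 0.129, and TaAffx.56524.1.S1_at had an adjusted p of 0.0278 for lines. Both GSTZ1 and PCS1 use glutathione. The sign of the GSTZ1 differences turned with scan day as a block, where -0.23, -0.27 and -0.43 were obtained. Without line as a block, the difference in TaAffx.56524.1.S1_at did not pass (limma, adjusted p = 0.125).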

How the data were processed

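Per the labels, poly(A) RNA from seed was biotin-labelled and hybridised to Affymetrix wheat arrays. The authors deposited linear intensity values. The submitters' processing notes name RMA, of which the version is not given in the sources used here. Intensity ran from 5.04 to 27696, array medians from 32.1 to 36.4, and log2 was taken with nothing added (log2 constant 0). The number of arrays limits precision. Of 61290 probe sets, 111 controls and 64 reporters were left out, and of the 61115 tested, 1273 carry 1 gene symbol and 0 carry several, which leaves 59842 unnamed here. Symbols were matched to RefSeq gene names.

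Line effects, line contrasts and replicate differences were fitted to all probe sets with limma 3.58.1 in R 4.3.3, with Benjamini-Hochberg adjustment and a threshold of 0.05. Correlations over 39 line means used 100000 permutations (5000 when leaving out an array), so 1e-05 is the smallest p they can give before adjustment. Arrays counted as 2-cluster where the gap was at least 0.5 on the log2 scale and 2 within-cluster SDs, with 12 or more arrays a side. Lines under 75% agreement were those left out as 6 lines. The labels call replicates biological, without saying that each came from a separate plot. The fits were tested on simulated data. Alternatives covered scan day as a block, array weights, trend, centring, wash records, the replicate block and leaving out arrays or lines. Named lines were the 3 highest and 3 lowest, and named genes the 3 of highest r, per gene. The members and lists were chosen with earlier results of these data known.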

Additional observations from a re-analysis of the deposited data

How the results depend on the processing

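The DMAS1 line effects lay close to the threshold. The adjusted p of Ta.5335.1.A1_x_at was 0.136 with scan day as a block, 0.0557 with limma's trend and 0.0544 with arrays centred on their median, and that of Ta.5335.3.S1_a_at was 0.0509 with the trend. Ta.5335.1.A1_at passed at 0.0273 without the 3 arrays with another wash record. Leaving out each array gave adjusted p from 0.0177 to 0.341 in Ta.5335.1.A1_at, 0.00136 to 0.0783 in Ta.5335.1.A1_x_at, 0.00599 to 0.0642 in Ta.5335.3.S1_a_at and 0.178 to 0.948 in PCS1, and p from 0.0126 to 0.498 for the difference between DMAS1 probe sets. The lone array of a line was then assumed to vary like the other lines. Line effects over all probe sets numbered 4088, and were more numerous without the 3 wash-record arrays, which included H8 replicate 1.

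The number of called lines was 0 in Ta.5335.1.A1_at with array weights, 1 in Ta.5335.1.A1_x_at with scan day as a block, and 1 in Ta.5335.3.S1_a_at with scan day (B68) or array weights (G32). In PCS1 it was 0 without line H8, without the 6 lines, without the 6 lines with a replicate block, and with array weights. Leaving out each array gave 1 to 3 called lines in Ta.5335.1.A1_x_at and 0 to 1 in PCS1, where H8 minus the other lines ran from -1.709 to 0.256. Probe sets with at least 1 called line numbered 21629, but 4232 without line H8, 6591 without the 6 lines, 8850 with array weights and 13422 among the brighter probe sets.

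With scan day as a block, replicate 2 minus replicate 1 turned negative in DMAS1 (-0.359 in Ta.5335.1.A1_at, -0.111 in Ta.5335.1.A1_x_at and -0.438 in Ta.5335.3.S1_a_at) and in GSTZ1 (-0.229, -0.269 and -0.429), and was -0.671 without passing in PCS1. That fit rests on 1 shared day, and 7 probe sets passed in place of 17527. Leaving out each line kept PCS1 between -0.347 and -0.277, with adjusted p up to 0.0032.

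Replicate number was left out of the main line tests, although 28.7% of all probe sets differed by it (limma). Replicate 2 minus replicate 1 differences over the brighter probe sets correlated between lines with a median of 0.143. Of 741 pairs of lines, 421 had a correlation over 0.1, and the lowest was -0.568. With the replicate block, line effects numbered 5622, and the adjusted p was 0.187 in Ta.5335.1.A1_at, 0.0257 in Ta.5335.1.A1_x_at, 0.0277 in Ta.5335.3.S1_a_at and 0.504 in PCS1, so no DMAS1 or PCS1 call changed.

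Among correlations over lines, agreement of replicates in Ta.5335.1.A1_x_at was 0.248 without the 2 farthest lines. Ta.5335.3.S1_a_at with PCS1 was -0.446 without H8, -0.473 without the 6 lines and -0.377 on linear intensities, and Ta.5335.1.A1_x_at with PCS1 was -0.425 without H8, all past the threshold. Within replicate 2 arrays, which include the low H8 array, PCS1 had r = 0.254 with Ta.5335.1.A1_at and 0.097 with Ta.5335.1.A1_x_at. There, Ta.5335.1.A1_at had r = 0.388 with Ta.5335.3.S1_a_at. With the first component, Ta.5335.3.S1_a_at was 0.433 without the 6 lines, 0.432 with centred arrays and 0.461 in replicate 1 arrays. Ta.5335.1.A1_x_at was 0.376 in replicate 1 arrays, and PCS1 was 0.060 with centred arrays and 0.399 in replicate 2 arrays. With the second component, PCS1 was 0.325 without the 2 farthest lines, 0.345 without H8, 0.379 without the 6 lines and 0.357 in replicate 1 arrays. In replicate 2 arrays Ta.5335.1.A1_at was 0.140, Ta.5335.1.A1_x_at 0.197 and Ta.5335.3.S1_a_at -0.225. The cause of these changes was not tested.

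Leaving out each line, replicate agreement ran from 0.375 to 0.531 in Ta.5335.1.A1_x_at and from 0.396 to 0.526 in Ta.5335.3.S1_a_at. Leaving out each array, PCS1 ran from -0.381 to 0.279 with Ta.5335.1.A1_at, -0.438 to 0.245 with Ta.5335.1.A1_x_at and -0.467 to -0.271 with Ta.5335.3.S1_a_at. With the first component r ran from 0.288 to 0.422 in Ta.5335.3.S1_a_at and -0.299 to 0.245 in PCS1. With the second it ran from -0.310 to 0.103 in Ta.5335.1.A1_at, -0.309 to 0.101 in Ta.5335.1.A1_x_at, -0.521 to -0.307 in Ta.5335.3.S1_a_at and 0.263 to 0.563 in PCS1. Marker list relations passing by Pearson's r numbered 0 to 1.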
